A study of Mus musculus with 17 samples.

Results

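The 9 cultures of lung cells from mice given PBS, out of 17 cultures in the series, were ranked by how much RNA they held from genes that mark fibroblasts. The score of a library was the mean of log2(CPM + 1) over Col1a1, Col1a2, Col3a1 and Pdgfra, where CPM is a gene's count scaled to a common library total. The 3 libraries with the highest score were set against the 3 with the lowest, and the genes described below are the other 10477 of the 10481 genes that passed 10 CPM in at least 2 of the 17 libraries. The libraries were therefore chosen by measured values, and the contrast between them is given as a description without a test.

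All mice carried Ephb4f/f and Col1a2-CreERT2. Control mice received corn oil and Ephb4 CKO mice received 4-hydroxytamoxifen, 1 mg per day for 5 days, from 4 weeks of age. PBS was given at 6 weeks, the lungs were taken on day 14, and the cells were grown in 10% serum to 80% confluency and passaged 1 time before total RNA was sequenced. The PBS groups comprised 4 control and 5 CKO mice, with 1 library per mouse. Another 8 libraries came from 4 control and 4 CKO mice of the same design given bleomycin at 1.2 U/kg, a drug that injures the lung. Because Cre is driven by Col1a2, one of the 4 score genes, the deletion can take place only in cells that use this promoter. Mice are numbered here by accession order within a group, so a number is only a name.

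The score was 10.49 in control mouse 3, 8.29 in CKO mouse 3 and 4.25 in control mouse 1, which form the high side. It was 3.97 in CKO mouse 5, 2.33 in CKO mouse 2 and 2.05 in control mouse 2, which were left in the middle. On the low side it was 1.97 in CKO mouse 4, 1.46 in CKO mouse 1 and 1.01 in control mouse 4. The border values were close to each other, with 4.25 just inside and 3.97 just outside the high side, and 1.97 just inside and 2.05 just outside the low side. Counts of the 4 genes made up 0.795% of the first-ranked library, 0.169% of the second and 0.00843% of the third, against 0.000474% to 0.0013% in the low libraries.

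**Figure D1:**
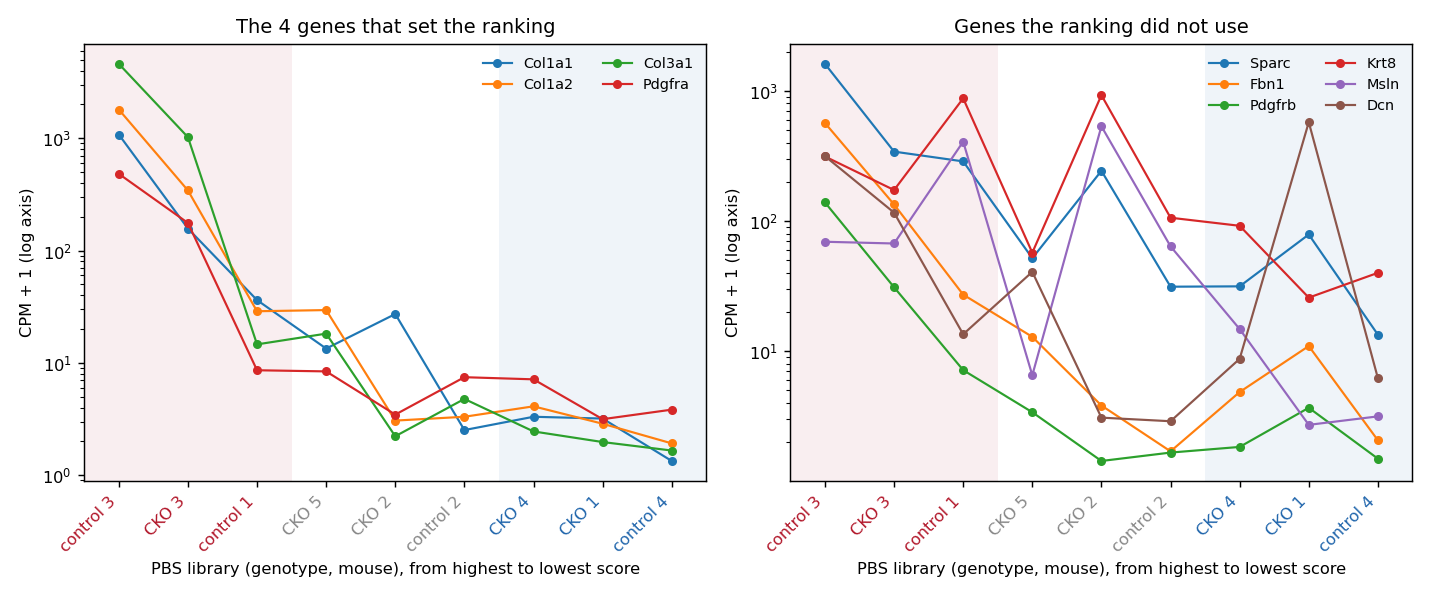
CPM + 1 on a log axis in the 9 PBS libraries, from the highest score to the lowest, with the high side shaded red and the low side blue, for the 4 score genes (left) and for 6 other genes (right). Col3a1 is at 4595 and 1021 CPM in the first 2 libraries and at 17.2 CPM or less in the other 7, while Krt8 and Msln peak in control mouse 1 and CKO mouse 2 and Dcn in CKO mouse 1.

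The label of primary fibroblasts went against the RNA markers in most of these libraries, and the name fibroblast-rich went against them in the third. The study reported high fibroblast purity in passaged lung cultures by flow cytometry, which measures proteins on cells and not the RNA compared here. Col3a1, a fibrillar collagen, was at 4595 CPM in the first library, 1021 in the second and 13.6 in the third, below the 17.2 of CKO mouse 5 in the middle. Pdgfra, the platelet-derived growth factor receptor of lung fibroblasts, was at 481, 175 and 7.59 CPM in the same 3 libraries and at 7.39 in CKO mouse 5. Genes of macrophages were abundant in every PBS library, with a summed level over 16 pan-macrophage genes of 13450 to 38650 CPM on the high side and 20543 to 42306 CPM on the low side. The sides are therefore called high-scoring and low-scoring.

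The third library was closest to a library from the middle. Over the 10477 genes, control mouse 1 and CKO mouse 2 had a correlation of 0.98 and an SD of their log2 ratio of 0.39, the nearest of all 36 pairs of PBS libraries. The next pair, CKO mouse 4 and control mouse 4, had 0.96 and 0.58. Genes are not independent replicates, and these values describe likeness only.

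Ranking the same 9 libraries by 18 other fibroblast identity genes gave the same first 3 libraries, at 5.41, 3.86 and 2.37 on the mean log2 scale. CKO mouse 1, the second lowest by the 4 genes, came next at 2.3, and Dcn, a collagen-binding proteoglycan, stood at 573 CPM there, the highest of the 9. Control mouse 4 was lowest in both orders, at 1.16. Replacing the third library by CKO mouse 5, the next in the order, left 219 genes higher and 16 lower by the rule given below.

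Total counts ran from 66540022 to 110245390 per PBS library, and were 74005256 to 83741342 on the high side and 96356991 to 110245390 on the low side. Noncoding RNAs of 7 abundant genes took 17.9% to 34.7% of the counts, and CT010467.1 alone took 13% in CKO mouse 2. Sex genes went with the label in all 9 PBS libraries and against it in 3 of the 8 bleomycin libraries. The columns of the deposited table stand in 2 sorted runs of 8 and 9 libraries, the same sizes as the 2 groups in which the labels say the samples were sequenced, although no label names the group of a library. The first 2 libraries are in the first run, and the third library and all 3 low libraries are in the second.

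Lung fibroblasts build the matrix of the alveolar wall and the airway sheath. They secrete fibrillar collagens, which are folded in the endoplasmic reticulum with the help of chaperones and hydroxylases, trimmed outside the cell, and crosslinked together with elastin by lysyl oxidases. Macrophages of the lung clear surfactant and debris through lysosomes, carry pattern receptors and lectins, and release cytokines and chemokines when stimulated. Both cell types adhere to plastic, and so do epithelial cells of the lung.

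A gene was counted when the 3 high and 3 low libraries did not overlap and the means of log2(CPM + 1) differed by at least 2. By this rule 790 genes were higher on the high side, 7.54% of the 10477, and 47 were higher on the low side, 0.449%. The median difference over all genes was 0.31, and 72.6% of the genes had a positive difference. Ranked by the other fibroblast identity genes, 326 genes were higher and 0 lower by the same rule, and with 4 libraries a side 110 were higher and 3 lower. The low-side genes below are those of the 4-gene ranking with 3 libraries a side. The percentages are of all genes under the same contrast that set the sides, so a list is read only as a count beside them. In bulk RNA fewer cells of a type and less RNA per cell cannot be told apart, and CPM are shares of a fixed total, so a large rise of some genes lowers the rest.

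With TMM library sizes, which fix the bulk of genes at no change, the median over all genes was -0.01, and 580 genes were higher and 89 lower. The percentage higher among those counted was then 86.7% against 94.4% with column totals.

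**Figure D2:**
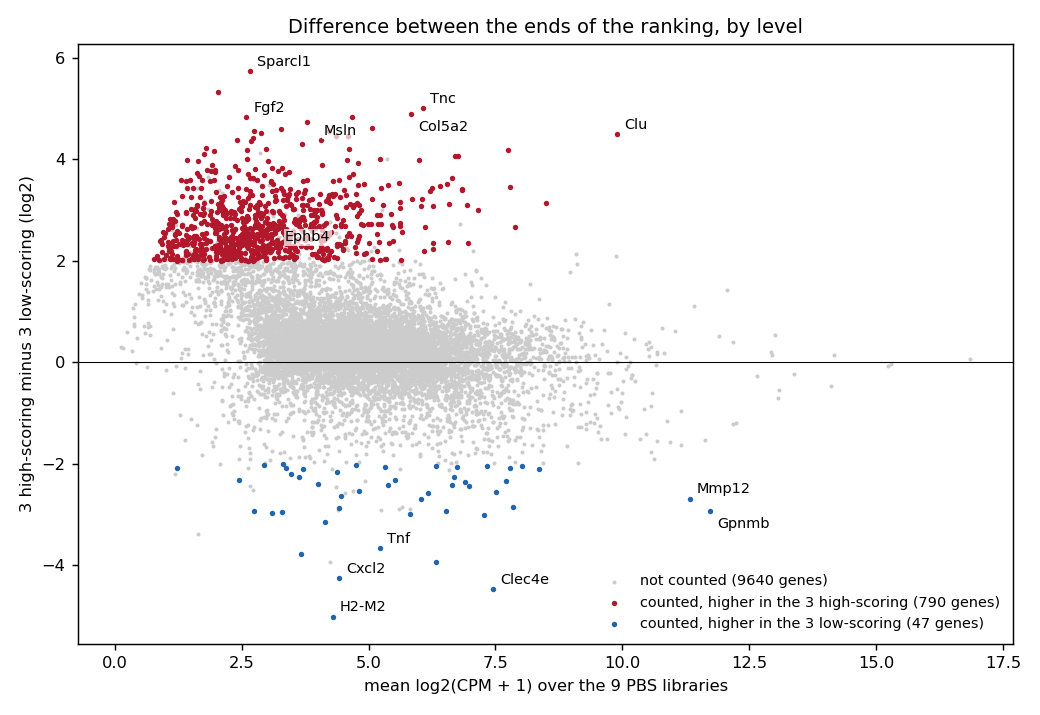
Difference in mean log2(CPM + 1), 3 high-scoring minus 3 low-scoring PBS libraries, against the mean level over the 9 PBS libraries, with 1 point per gene and counted genes coloured. The 790 genes counted above 2 (red) include Sparcl1 at 5.73 and Tnc at 5.00, and the 47 counted below -2 (blue) include H2-M2 at -5.01 and Clec4e at -4.47.

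Sparcl1, a secreted relative of Sparc at chr5:104079111-104113733 (GRCm38, minus strand), had the largest difference. It was at 769 CPM in control mouse 3, 89.6 in CKO mouse 3 and 5.16 in control mouse 1. The low libraries had 0.56, 0.118 and 0.637 CPM, and the difference was 5.73. Medag, named for its part in adipocyte formation, had 197, 42.7 and 8.5 CPM on the high side, against 0.135, 0.0635 and 0.0562 on the low side. Tnc, which encodes tenascin-C and lies at chr4:63959785-64047015 (minus strand), had 1923, 425 and 206 CPM, against 43.8, 16.7 and 5.54. In these 3 genes the first library was far above the third, and the third was above every low library.

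Among the 18 other fibroblast identity genes 8 were higher, none was lower, and the median difference was 2.25 beside 0.31 over all genes. Of the 18, 14 had passed the filter on low values, and medians here and below are over all members found in the table. Sparc, a collagen-binding glycoprotein, was at 1610, 340.2 and 286 CPM in the high libraries, at 50.8, 242 and 30.3 in the middle, and at 30.5, 77.8 and 12.4 in the low ones, a difference of 4.07. Pdgfrb, a receptor of pericytes and fibroblasts, was at 138, 30 and 6.16 CPM in the high libraries and between 0.496 and 2.68 CPM in the low ones. Tbx4, a transcription factor of lung mesenchyme, was at 58.4, 15.6 and 1.96 CPM on the high side, with at most 0.643 CPM in a low library. Prrx1, a homeobox factor of mesenchyme, was at 74.4, 16.6 and 3.63 CPM against 1.07, 0.608 and 0.0937. Dcn did not separate the sides, since its 314, 115 and 12.5 CPM overlapped the 573 CPM of CKO mouse 1.

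Alveolar fibroblast genes, 12 in number with 6 past the filter, included 5 that were higher, with a median difference of 1.49. Cdh11, a cadherin of mesenchymal cells, was at 289.8, 32.6 and 18.8 CPM on the high side against 5.15, 9.12 and 0.403. Itga8, an integrin subunit of alveolar fibroblasts, was at 33.1, 8.94 and 1.12 CPM, and no low library passed 0.253 CPM. Of 12 adventitial fibroblast genes 8 passed the filter and 4 were higher, with a median of 2.0, while Pi16, a defining marker of that layer, was below 1 CPM in all 9 libraries and did not pass the filter. Of 17 lung mesenchyme transcription factors 9 passed the filter and 5 were higher, with a median of 1.63. All 17 together summed to only 7.15, 37.8 and 2.93 CPM in the low libraries. A member could therefore hardly pass the filter through those libraries, and the direction of this count was largely set by the filter. By the mean of log2(CPM + 1) all 3 lists were highest in control mouse 3 and next in CKO mouse 3, but the adventitial genes summed to 635 CPM in CKO mouse 1 on the low side against 304 CPM in CKO mouse 3.

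Collagen chains beyond the 4 score genes numbered 41, of which 21 passed the filter. Among the 41, 11 were higher and none was lower, with a median difference of 1.7. Col5a2, a chain that sets the width of fibrils, was at 1912, 628 and 109.8 CPM in the high libraries, at 32, 54.7 and 3.81 in the middle and at 14.2, 100 and 2.44 in the low ones. Col12a1, which binds the surface of fibrils, was at 677, 191 and 70.1 CPM against 7.14, 24.9 and 0.918. Col6a3, of the beaded filaments around cells, was at 399 CPM in the first library but 36.7 and 4.68 in the next 2, with 0.454 to 1.25 CPM on the low side. CKO mouse 1 was the highest of the low libraries for Col5a2 and Col12a1 and the lowest of them for Col6a3.

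Genes that process and crosslink fibrils were counted in part. Of 20 elastic fibre and lysyl oxidase genes 18 passed the filter and 12 were higher, with a median of 2.83. Of 21 procollagen folding and processing genes 19 passed and 6 were higher, with a median of 1.31. Fbn1, the fibrillin of microfibrils, was at 565, 133 and 26.2 CPM on the high side and at 3.86, 9.96 and 1.07 on the low side. Eln, elastin itself, was at 137 and 23.8 CPM in the first 2 libraries and at 0.297 CPM in the third, with 0, 0.0272 and 0.0937 CPM on the low side. It thus marked 2 libraries rather than 3. Serpinh1, the collagen chaperone of the endoplasmic reticulum, was at 914, 197 and 141 CPM against 23.4, 31.9 and 6.99. Loxl1, a lysyl oxidase that crosslinks elastin, was at 99.4, 51.7 and 5.2 CPM, against 1.02, 0.653 and 0.122.

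Of 18 proteoglycan and matricellular genes 14 passed the filter and 10 were higher, with a median of 2.84. Bgn, a small proteoglycan of the fibril surface, was at 557, 236 and 28.8 CPM against 6.43, 13.2 and 2.47. Fn1, fibronectin, had another order, at 892, 509 and 1029 CPM on the high side and at 1330 CPM in CKO mouse 2 of the middle, its highest level. The low libraries had 56.1, 197 and 30.6 CPM. Ccn2, a matricellular protein induced by stretch, was likewise highest in the third library and CKO mouse 2, at 884 and 871 CPM, against 368 and 136 in the first 2.

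Contractile genes and targets of serum response factor numbered 15, of which 14 passed the filter and 9 were higher, with a median of 2.51. Acta2, smooth muscle actin, was at 557, 59.7 and 160.4 CPM on the high side, at 49.4, 156 and 1.42 in the middle and at 13.3, 14.2 and 5.08 on the low side, a difference of 4.01. Tagln, an actin-binding protein of smooth muscle, was at 223, 48.1 and 251 CPM, and at 229 CPM in CKO mouse 2. For both genes the third library exceeded the second. Of 12 pericyte and smooth muscle genes 7 passed and 6 were higher, with a median of 2.38. All 12 together summed to only 22.7, 16.1 and 8.67 CPM in the low libraries, so the direction of this count was largely set by the filter. Cspg4, a pericyte marker, overlapped between the sides, with 0.297 to 6.71 CPM on the high side and 0.3 to 1.87 CPM on the low side. Of 14 endothelial genes 11 passed and 12 had a positive difference, with a median of 1.02 (-0.15 in the second column run alone). Cldn5, a tight junction gene, was the only one counted, and the endothelial junction gene Cdh5 overlapped, with 54.9 CPM in CKO mouse 1 against 24.3 in the third library.

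Of 16 growth factor and morphogen genes made by mesenchyme 13 passed the filter and 6 were higher, with a median of 1.77. Of 14 TGF-beta and BMP genes 13 passed and 5 were higher, with a median of 1.59. Fgf2, a fibroblast mitogen, was at 215, 47 and 14.4 CPM against 3.24, 0.19 and 0.365. Fgf7, a factor for epithelial cells, was at 31.5, 12.2 and 3.15 CPM, and at most 1.43 CPM on the low side. Tgfb3, a ligand of the TGF-beta family, was at 63.8, 10.7 and 6.49 CPM against 0.675, 0.744 and 0.422. Cxcl12, a chemokine secreted by stromal cells, was at 213, 60.3 and 15.6 CPM, against 6.88, 10.2 and 3.61.

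Epithelial genes were higher on the high side as well, in another order of libraries. Of 12 keratin and junction genes 11 were higher, all 12 passed the filter, and the median difference was 2.93. Krt8, a keratin of simple epithelia, was at 312, 172 and 874 CPM on the high side, at 56.1, 925 and 105 in the middle, and at 90.9, 24.8 and 39 on the low side. Its partner Krt18 had 201, 135 and 560.3 CPM, and 609.9 CPM in CKO mouse 2. Epcam, an adhesion molecule of epithelia, had 109, 37.2 and 127 CPM against 19.7, 3.95 and 4.41. The third library and CKO mouse 2 held most keratin RNA, and the score placed 1 of them on the high side and the other in the middle.

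Msln, a surface glycoprotein of mesothelium, was at 68.3, 66.2 and 406 CPM on the high side, at 533 CPM in CKO mouse 2 and at 13.8, 1.72 and 2.16 CPM on the low side. It was the only gene of a 7-gene mesothelial list that passed the filter, and Wt1, a defining mesothelial factor, was at 5.03 CPM in the first library, 0.669 in the second and 0 in the other 7. Of 14 alveolar type 1 and type 2 genes 12 passed and 6 were higher, with a median of 1.95. Sftpb, a surfactant protein, was at 106 and 79.5 CPM in the first 2 libraries and at 6.19 in the third, against 2.45, 0.0907 and 0.918. Sftpc, the surfactant protein of type 2 cells, was at 6.99, 29.1 and 36.3 CPM against 5.18, 0 and 3.06. Of 8 airway genes, the ciliated cell factor Foxj1 alone passed the filter, and it was higher, at 13.6 to 17.5 CPM against 0.254 to 2.07. The 8 genes summed to at most 5.58 CPM in a low library, so none could pass the filter through those libraries. The part that cells with these epithelial markers had in the other differences was not tested.

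Which library was highest differed between genes. Among the 790 genes control mouse 3 was highest of the 9 PBS libraries for 515 and CKO mouse 3 for 69. Control mouse 1 was highest for 48. CKO mouse 2, which was in the middle and took no part in the contrast, was highest for 155, or 19.6%. In 166 genes both first-ranked libraries were at least 1 above the third on the log2 scale, and in 76 the third was at least 1 above both. All 3 middle libraries were at or above every low library in 83 of the 790 genes, 10.5%.

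**Figure D3:**
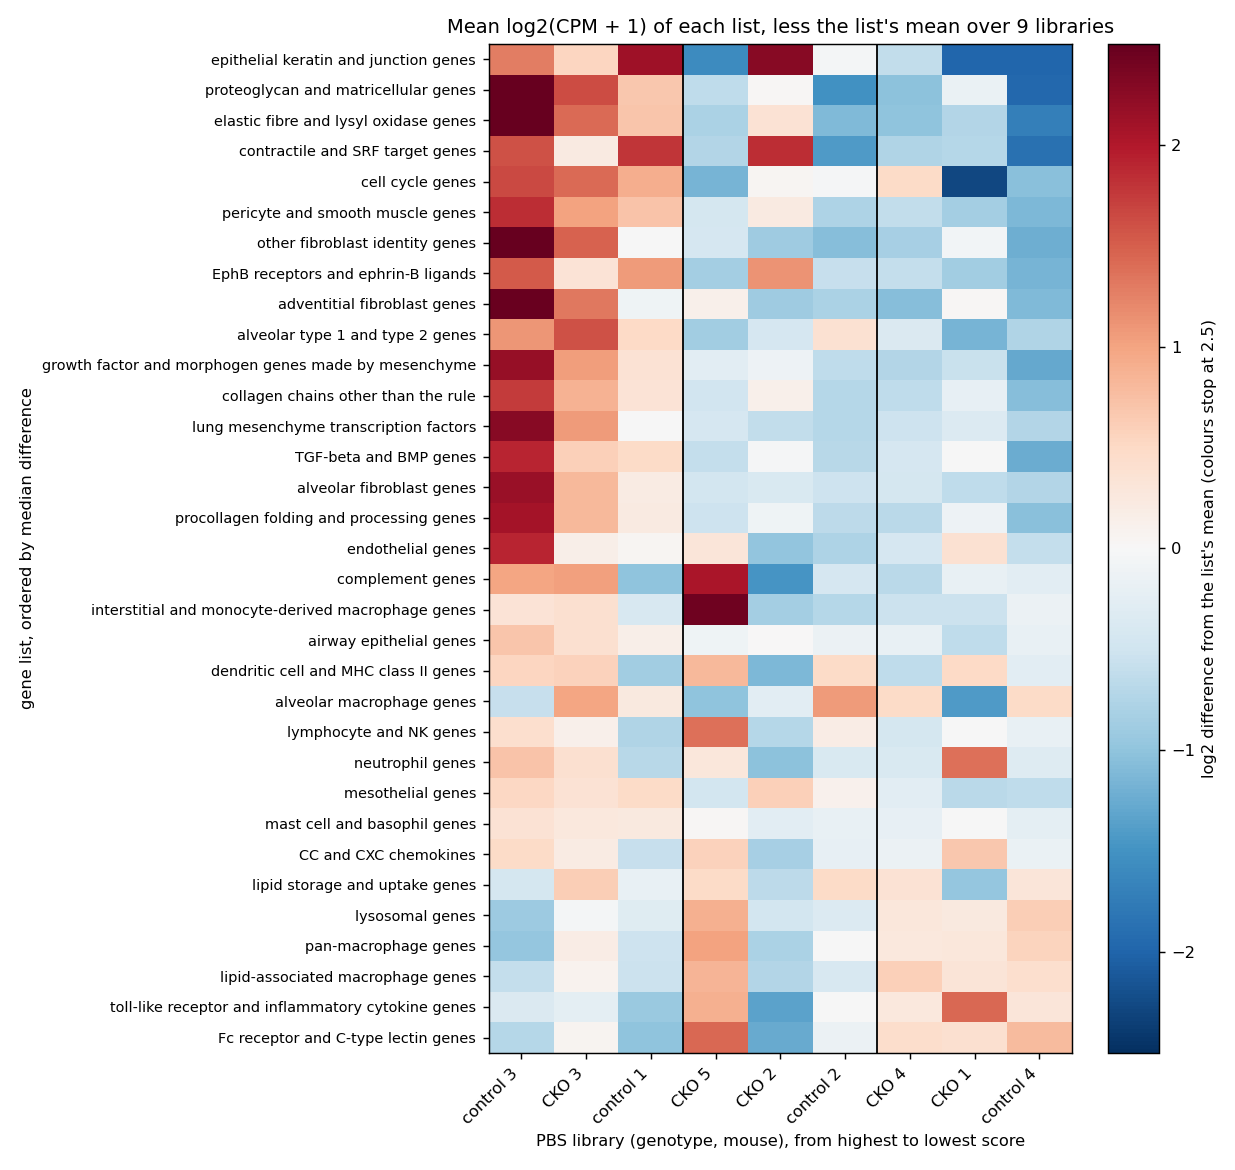
Mean log2(CPM + 1) of each gene list in each PBS library, less the mean of that list over the 9 libraries, with libraries in order of score and lists in order of their median difference. Most mesenchymal lists are highest in control mouse 3, keratin and contractile lists are as high in CKO mouse 2 as in control mouse 1, and the pan-macrophage, lipid-associated, lysosomal and cytokine lists are below their mean in control mouse 3, control mouse 1 and CKO mouse 2.

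Dividing cells were also unevenly spread. Of 20 cell cycle genes 14 were higher, none was lower, and the median was 2.49. Mki67, a marker of cycling cells, was at 283, 266 and 284 CPM on the high side and at 13.3, 126 and 133 CPM in the middle. On the low side it was at 133 CPM in CKO mouse 4 but 9.16 and 11.6 CPM in CKO mouse 1 and control mouse 4. Top2a, the topoisomerase of replicating cells, was at 309.5, 152 and 159 CPM against 92.8, 6.59 and 12.5. For Mki67, CKO mouse 4 was thus at the level of CKO mouse 2 and control mouse 2.

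Ephb4, the gene targeted in CKO mice, encodes a receptor that binds ephrin-B2 on neighbouring cells. The gene-level count takes in all exons, whether deleted or not. It was at 41.9 CPM in control mouse 3, 9.42 in CKO mouse 3 and 24.4 in control mouse 1. In the middle it was at 3.59 in CKO mouse 5, 20.9 in CKO mouse 2 and 3.25 in control mouse 2. The low libraries had 3.77 in CKO mouse 4, 5.73 in CKO mouse 1 and 2.17 in control mouse 4. Its difference of 2.27 put it among the 790 genes, and its level followed neither the CKO label nor the score alone, since CKO mouse 2 had more of it than 2 of the 4 control mice.

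Of 8 EphB receptors and ephrin-B ligands 5 were higher, with a median of 2.2 over the 8. The same 5 were the ones that passed the filter. All 8 together summed to only 5.43 to 13.9 CPM in a low library. A member could therefore hardly pass 10 CPM through the low libraries, and that every member past the filter was higher was largely set by the filter. Efnb2, the ligand ephrin-B2, was at 26.3, 8.11 and 36.8 CPM on the high side and at 52.5 CPM in CKO mouse 2, against 4.48, 2.17 and 1.01. Ephb2, a related receptor, was at 23.1, 8.35 and 17.8 CPM, and at 18.4 CPM in CKO mouse 2, against 2.07, 0.272 and 0.0187. Ephb6, a receptor without kinase activity, and Efnb3 stayed below the filter. For these genes CKO mouse 2 was at the level of the high libraries.

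On the low side, the 47 genes included innate immune receptors, cytokines and chemokines. The promoters of the leading low-side genes are shown here beside that of Tnc from the high side, so that the motifs searched can be seen in place. Each is the RefSeq window on GRCm38.p6 from 250 bases before to 50 bases after the gene's start, read 5' to 3' on the gene's strand. Capitals mark matches on either strand to GAGGAA, a motif bound by PU.1, the factor of myeloid cells, to GGAATG, a motif of TEAD factors, and to a motif of NF-kappaB, an inducible factor of inflammation. The windows are chr4:64046966-64047265 (minus strand) for Tnc, chr17:37483505-37483804 (minus) for H2-M2, chr6:123289822-123290121 (minus) for Clec4e and chr5:90903649-90903948 (plus) for Cxcl2.
Tnc: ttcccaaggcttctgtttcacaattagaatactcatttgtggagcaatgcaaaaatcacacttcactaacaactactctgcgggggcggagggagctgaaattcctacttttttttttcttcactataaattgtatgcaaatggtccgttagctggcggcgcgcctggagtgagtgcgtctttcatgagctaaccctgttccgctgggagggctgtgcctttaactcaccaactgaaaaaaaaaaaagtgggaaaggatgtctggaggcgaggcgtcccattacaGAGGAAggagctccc
H2-M2: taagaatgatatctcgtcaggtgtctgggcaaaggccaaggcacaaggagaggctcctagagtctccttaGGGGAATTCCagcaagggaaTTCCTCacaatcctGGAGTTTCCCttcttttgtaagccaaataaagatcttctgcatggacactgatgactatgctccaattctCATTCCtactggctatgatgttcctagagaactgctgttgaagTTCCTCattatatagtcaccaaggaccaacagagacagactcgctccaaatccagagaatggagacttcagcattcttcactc
Clec4e: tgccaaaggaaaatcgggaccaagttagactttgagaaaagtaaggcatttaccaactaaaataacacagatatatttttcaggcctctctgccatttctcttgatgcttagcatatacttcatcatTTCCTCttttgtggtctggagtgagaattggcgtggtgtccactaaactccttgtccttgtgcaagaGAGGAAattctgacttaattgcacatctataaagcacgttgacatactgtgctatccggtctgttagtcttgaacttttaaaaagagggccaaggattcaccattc
Cxcl2: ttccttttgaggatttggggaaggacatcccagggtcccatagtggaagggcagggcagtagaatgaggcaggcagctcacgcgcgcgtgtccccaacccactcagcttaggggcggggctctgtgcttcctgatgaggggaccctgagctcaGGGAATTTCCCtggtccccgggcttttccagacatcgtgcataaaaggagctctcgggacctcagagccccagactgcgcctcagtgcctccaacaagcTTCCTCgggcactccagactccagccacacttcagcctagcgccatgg

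The Tnc window held 1 match to GAGGAA. Windows of Medag and Fgf2, also leading genes of the high side, were searched but are not printed. Medag had 1 match to the NF-kappaB motif, so that motif was not confined to the low side, and Fgf2 had none to any motif. H2-M2 had 2 matches to GAGGAA, 2 to the NF-kappaB motif and 1 to GGAATG. Clec4e had 2 to GAGGAA, and Cxcl2 had 1 to GAGGAA and 2 overlapping ones to the NF-kappaB motif. Of the 30 genes with the largest differences, 15 on each side, 21 had a window. Among windows of the genes higher on the low side 18 of 40 held GAGGAA, 45%, against 26.7% of 750 windows of the genes higher on the high side. It was in 27.2% of windows of all genes kept and 28.3% of all 32851 windows. The 40 windows belong to 36 of the 47 genes, so windows are not separate genes. TGACTCA, the AP-1 motif, was in 8 of 40 low-side windows, 20%, against 4.93%, 4.01% and 5.2% in the same order. The NF-kappaB motif, which was chosen after the values had been seen, was in 20% of low-side and 13.1% of high-side windows. It was in 10.7% of windows of all genes kept and 8.46% of all. GGAATG was in 20%, 16.1%, 11.8% and 14.7%. A match describes letters and is not evidence of binding.

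H2-M2, a non-classical class I gene at chr17:37480851-37483552, was at 2.23, 1.96 and 3.96 CPM in the high libraries and at 33.7, 2.74 and 42.1 in the middle. On the low side it was at 50, 929 and 32.2 CPM, a difference of -5.01. Clec4e, the lectin Mincle at chr6:123281789-123289870, was at 24.6, 38.8 and 66.2 CPM on the high side, at 223, 53 and 243 in the middle and at 573, 1492 and 869 on the low side. Clec4d, its partner at the same locus, was at 47.3, 77.8 and 80.5 CPM against 307, 559.8 and 367. For these 3 genes CKO mouse 1 was the highest of the low libraries, and CKO mouse 2, with 92.4 CPM of Clec4d, lay in or near the range of the high ones.

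Cxcl2, a chemokine that draws neutrophils, at chr5:90903871-90905938, was at 10.8, 4.91 and 1.73 CPM on the high side against 33.4, 476 and 79.4 on the low side. Cxcl1, its neighbour in the same cluster, was at 7.73, 3.81 and 1.3 CPM against 17.5, 309 and 41.1. Of 45 CC and CXC chemokines 18 passed the filter, 4 were higher on the low side, 2 on the high side, and the median difference was 0.01. Ccl3, a chemokine for monocytes, was at 58.6, 75.8 and 56 CPM against 246, 893 and 164. The high-side members were the stromal Cxcl12 and Cxcl15, a lung epithelial chemokine, at 20.9, 16.1 and 2.35 CPM against 1.9, 0.662 and 0.319. Of the 18 chemokines past the filter 6 had a positive and 12 a negative difference.

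Of 16 toll-like receptor and inflammatory cytokine genes 14 passed the filter and 3 were higher on the low side, with a median of -1.06. Tnf, the cytokine, was at 10.4, 15.1 and 8.22 CPM against 85, 232 and 172. Tlr2, a receptor for bacterial lipoproteins, was at 35.6, 70.1 and 81.6 CPM against 269, 344 and 360. Il1a, an interleukin-1 cytokine, was at 113, 147 and 82.8 CPM against 399, 1651 and 283. Acod1, the enzyme that makes itaconate in activated macrophages, was at 16.3, 46.6 and 16.5 CPM against 168, 1146 and 262, and at 310.2 CPM in CKO mouse 5 of the middle. Il1b did not separate the sides, since its low-side values were 25.7, 2738 and 29.3 CPM and its high-side values 62.7, 30.5 and 12.9. For most of these genes CKO mouse 1 was the highest of the 9 libraries, as it was for 23 of the 47.

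Markers common to macrophages leaned to the low side without meeting the rule. None of the 16 pan-macrophage genes was counted on either side, 3 of the 16 had a positive difference, and the median was -0.91. Cd68, a lysosomal glycoprotein of macrophages, was at 285, 848 and 502 CPM on the high side, and all 3 low libraries were above these, up to 1918 CPM in control mouse 4, a difference of -1.52. Adgre1, the surface antigen F4/80, was at 92.7, 179 and 117 CPM against 311, 682 and 555. Lyz2, lysozyme, overlapped, at 9656, 30106 and 20069 CPM against 24998, 6209 and 27435. Csf1r, the receptor of the macrophage growth factor, was at 95.4, 191 and 116 CPM against 203, 240.5 and 275. Even the first-ranked library thus held RNA of these 4 macrophage genes, at 92.7 to 9656 CPM.

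All 20 lysosomal genes had a negative difference, with a median of -0.77, but none reached 2. Ctsb, a lysosomal protease, was at 2198, 4121 and 3182 CPM against 6560, 6719 and 8344, and it was highest in CKO mouse 5, at 11035. Ctsd, another lysosomal protease, overlapped, at 8095, 20221 and 19559 CPM against 24178, 13734 and 25877. Summed over the 20 genes the level was 21054 to 47219 CPM on the high side and 46087 to 67393 on the low side.

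Macrophage subsets gave mixed orders. Of 12 lipid-associated macrophage genes 3 were higher on the low side and 1 on the high side, with a median of -0.91. Gpnmb, a glycoprotein of lipid-laden macrophages, was at 623, 1449 and 2563 CPM against 6982, 16334 and 9195. Mmp12, macrophage elastase, was at 2148, 1875 and 513 CPM against 6309, 33100 and 2674, and Trem2, a lipid receptor, at 33.9, 74.9 and 27.2 CPM against 126, 201 and 206. Arg1, which breaks down arginine, ran the other way, at 1499, 1462 and 161 CPM against 72.7, 30.5 and 24.8, and at 1044 CPM in CKO mouse 5 and 783 in control mouse 2.

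Of 20 alveolar macrophage genes 1 was counted, on the high side, and the median was 0.20. That gene was Ear2, a ribonuclease, at 211, 1008 and 138 CPM against 115, 0.29 and 106. CKO mouse 1 lacked several markers of this type, with Siglecf, a sialic acid receptor, at 1.4 CPM there and 12.7 to 189 CPM in the other 8 libraries. Chil3, a chitinase-like protein, was at 31.5 CPM in CKO mouse 1 and at 1309 and 1460 CPM in the other 2 low libraries. The low side was therefore not of 1 kind.

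Interstitial and monocyte-derived macrophage genes, 16 in number with 14 past the filter, had 1 member counted on each side and a median of 0.73, which changed sign within both column runs, down to -0.54. Apoe, the lipid carrier, was at 326, 904 and 713 CPM on the high side, 228, 4.7 and 239.7 on the low side, and 4259 in CKO mouse 5. Ms4a7, a membrane protein of macrophages, was at 3.09, 4.92 and 5.95 CPM against 14.3, 197 and 37.8, with 335 CPM in CKO mouse 5. C1qa, a complement subunit made by tissue macrophages, was at 837 CPM in CKO mouse 5 and 5.32 to 26.9 CPM in the other 8. These 3 genes were highest in a library that was on neither side.

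**Figure D4:**
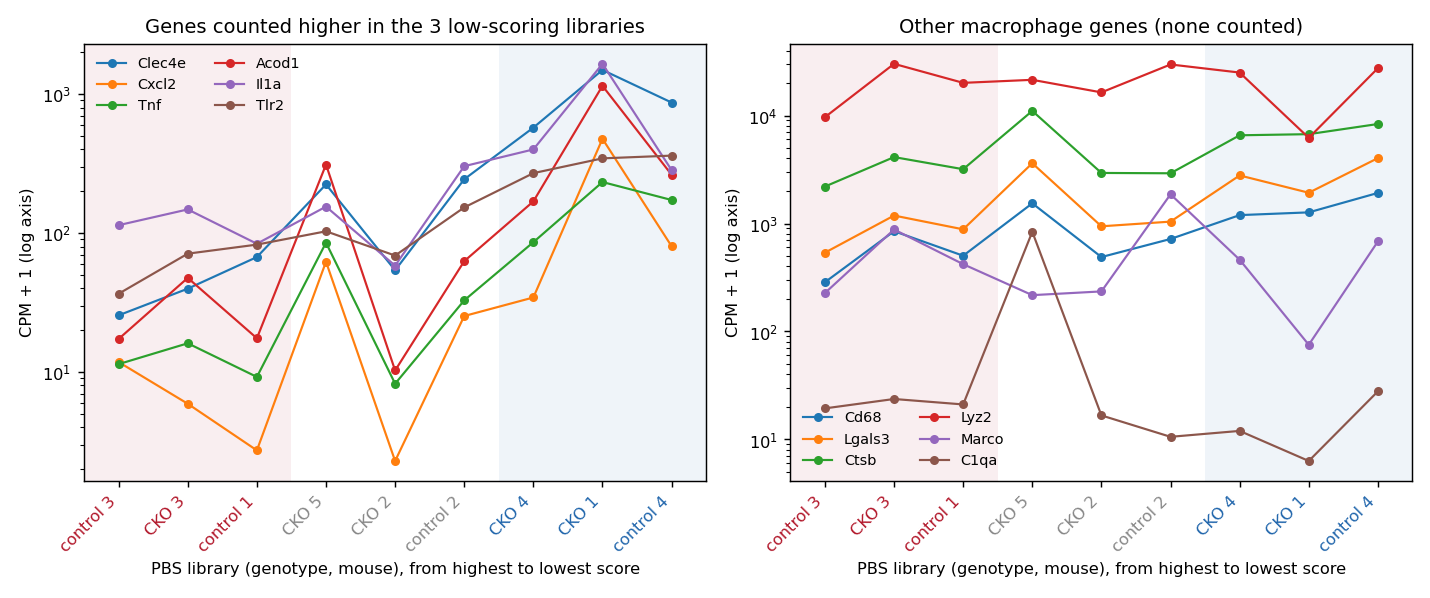
CPM + 1 on a log axis in the 9 PBS libraries, in order of score, for 6 genes counted as higher on the low side (left) and 6 other macrophage genes that were not counted (right). Clec4e is at 24.6 to 66.2 CPM on the high side and 573 to 1492 CPM on the low side, while Lyz2 overlaps between the sides and C1qa peaks in CKO mouse 5 at 837 CPM.

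Labels were compared with the score, which they did not set. The mean score was 3.61 ± 2.79 (SD, n = 5) in CKO mice and 4.45 ± 4.25 (SD, n = 4) in control mice, a difference of -0.85 with p = 0.698 in a 2-sided exact permutation test (adjusted p = 0.937 over 3 labels). The genotypes overlapped, since control mice were both first and last in the order. Without control mouse 3 the difference was 1.17, with the opposite sign. By the number series in the animal names, series 12 had 2.68 ± 1.43 (SD, n = 3) and series 11 had 4.63 ± 3.87 (SD, n = 6), with p = 0.595 in the same exact test (adjusted p = 0.937). Male mice had 4.08 ± 3.04 (SD, n = 4) and female mice 3.9 ± 3.84 (SD, n = 5), with p = 0.937 in the exact permutation test, adjusted p = 0.937. None of the 3 labels had an adjusted p under 0.05 in the exact test. The genotype and sex differences were smaller than the SD of either group. The number series difference of -1.95 was larger in size than the SD of series 12 and smaller than that of series 11.

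By the sorted run of the columns, a grouping added after the data had been seen, the score was 2.2 ± 1.25 (SD, n = 5) in the second run and 6.2 ± 3.87 (SD, n = 4) in the first, with p = 0.0952 in the exact permutation test. Within runs, the 2 highest against the 2 lowest of the first run gave 768 genes higher and 16 lower. The 2 highest against the 3 lowest of the second gave 559 and 181. Of the 790 genes 787 kept their sign in the first run and 783 in the second, and of the 47 genes 46 and 47 did, although these libraries are among those that chose the genes. The median of the other fibroblast identity genes was 3.41 in the first run and 0.13 in the second. The median of keratin and junction genes was 1.75 and 3.86, that of contractile genes 1.87 and 3.35, that of lysosomal genes -0.67 and -0.78, and that of pan-macrophage genes -0.98 and -0.92. The fibroblast genes separated the libraries of the first run and hardly those of the second, and the keratin and contractile genes separated those of the second more.

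The 8 bleomycin libraries, which had no part in the ranking, allowed a test. Their scores were 11.03, 10.82, 10.24 and 9.44 in control mice and 7.88, 5.45, 4.76 and 1.64 in CKO mice. Each gene was fitted on the score with a genotype term by edgeR's quasi-likelihood test, so that its slope is the log2 change per unit of score within a genotype. Control scores spanned only 9.44 to 11.03. CKO mice 2 and 1, at 7.88 and 5.45, were in number series 12 and the second column run, with sex genes against the label. CKO mice 3 and 4, at 4.76 and 1.64, were in number series 11 and the first run, with sex genes that went with the label. The difference in score between these pairs cannot be told apart from those labels. By Benjamini-Hochberg adjusted p under 0.05, 271 genes rose, 2.59% of 10477, and 6 fell, 0.0573%. Of the 790 genes 155 rose, 19.6% of them and 57.2% of the 271, and none fell. A positive slope was found in 627, 79.4% beside 47.9% of all genes. At an unadjusted p under 0.05 in edgeR, 332 of the 790 rose, 42% beside 8.66% of all genes. None of the 790 fell at that cut, beside 3.27% of all genes. The median slope was 0.29 over the 790 and -0.0043 over all genes.

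The 47 low-side genes were less clear in this test. None rose and 1 fell at an adjusted p under 0.05. Slopes were negative in 29, 61.7% of the 47, near the 52.1% of all genes. At an unadjusted p under 0.05 in edgeR, 8 fell, 17% beside 3.27% of all genes. At the same cut 1 rose, 2.13% beside 8.66% of all genes. The gene that fell at an adjusted p under 0.05 was Tlr2. It was at 63.7, 38.7, 53.9 and 63.5 CPM in control mice and 38.5, 101, 147 and 323 CPM in CKO mice in the order of their scores. Its slope was -0.49 (SE 0.083), with an adjusted p of 0.0308 in edgeR. Clec4e was at 29.6 to 65.3 CPM in control mice and at 112, 87.2, 108 and 802 in CKO mice, with a slope of -0.48 and an adjusted p of 0.138. The highest value of both genes was in the library with the lowest score.

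Matrix genes were among those with the smallest p. Sparc was at 2344, 3123, 2195 and 1486 CPM in control mice given bleomycin and went from 637 and 170.4 CPM down to 29.3 CPM in CKO mice along the order of their scores, and its slope was 0.67 (SE 0.0607, edgeR adjusted p = 0.00865). Loxl1 was at 127, 199.9, 95.6 and 84.2 CPM and at 65.2, 11.5, 3.89 and 0.262 CPM, with a slope of 1.2 (SE 0.115, edgeR adjusted p = 0.00865). Thbs2, thrombospondin 2, had the values 193, 294, 139 and 83.7 CPM and 137, 17.5, 2.85 and 0.16 CPM, with a slope of 1.51 (SE 0.142, edgeR adjusted p = 0.00865). The CKO libraries spread far more than the control libraries in all 3.

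By list, 9 of 18 other fibroblast identity genes rose, and so did 8 of 20 elastic fibre and lysyl oxidase genes and 7 of 18 proteoglycan and matricellular genes. So did 6 of 21 procollagen processing genes, 5 of 41 other collagen chains and 5 of 15 contractile genes. Some genes stand in more than 1 list. Dcn, which overlapped between the PBS sides, was among those that rose. No member of the keratin and junction, alveolar epithelial, EphB and ephrin-B, pan-macrophage, lysosomal or cell cycle lists rose or fell. Over all genes 2.59% rose and 0.0573% fell, so lists this short would hold few such genes or none at those shares. Krt8 was at 84.1, 587, 184 and 178 CPM and at 11.6, 193, 309 and 103 CPM, with a slope of -0.27 and an edgeR adjusted p of 0.952. Mki67 was at 64.7, 106, 262 and 196 CPM and at 44.5, 29.3, 309 and 24.7 CPM, with a slope of -0.18 and an adjusted p of 0.977. Ephb4 was at 15.3, 84.6, 44.3 and 38.9 CPM in control mice and at 10.1, 14.5, 9.4 and 4.79 CPM in CKO mice, and its slope was 0.16 (SE 0.164, edgeR adjusted p = 0.86). Genes of the matrix and fibroblast lists were thus among those that rose. None of the keratins that were higher in the PBS contrast was, which is near the share of all genes and does not set them apart. A p that misses the threshold does not show that a gene was unrelated.

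**Figure D5:**
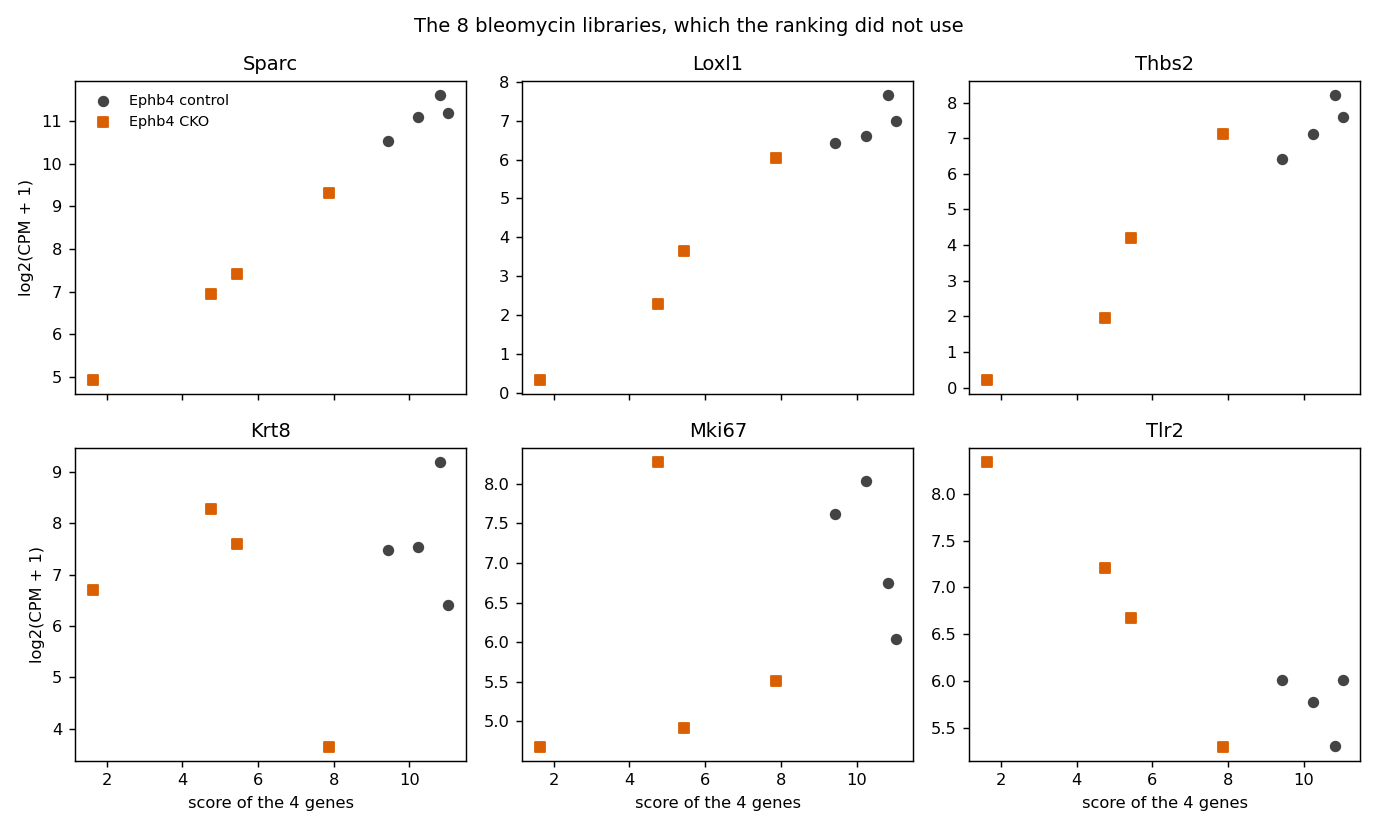
Level of 6 genes, as log2(CPM + 1), against the 4-gene score in the 8 bleomycin libraries, with 1 point per mouse (circles control, squares CKO) and a separate vertical range in each panel. Sparc, Loxl1 and Thbs2 increase with the score in CKO mice and Tlr2 decreases, while Krt8 and Mki67 are scattered.

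The number of genes that rose rested on single libraries. Without CKO bleomycin mouse 2 or without CKO bleomycin mouse 4 no gene rose at an adjusted p under 0.05 in edgeR, with 674 and 583 rising at an unadjusted p under 0.05. None fell either, with 181 and 322 falling at an unadjusted p under 0.05. With the column run as a further term, added after the data had been seen, 68 rose and none fell, with 689 rising and 130 falling at an unadjusted p under 0.05 in edgeR. Without control bleomycin mouse 4, 79 rose, and without control bleomycin mouse 3, 165. Leaving out the 3 libraries with a sex mismatch, none rose, with 1269 rising at an unadjusted p under 0.05. DESeq2 on all 8 libraries called 739 rising and 136 falling.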

How the data were processed

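Total RNA-Seq of lung cells cultured from 17 mice was analysed, with 9 PBS libraries ranked and 8 bleomycin libraries used for 1 test. The authors trimmed reads with cutadapt (version 1.18 in the submitters' processing notes, while the study's methods name another version), aligned them to GRCm38 with HISAT2 2.1.0 and assembled them with StringTie, and the deposited whole-number counts per gene were derived from coverage, transcript length and read length, with no normalization. A count is therefore an estimate that depends on how coverage was divided between overlapping or similar genes, and counting intervals were not used.

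CPM was computed from column totals over 55421 genes, and every column matched 1 labelled mouse. Genes over 10 CPM in at least 2 of 17 libraries were kept, with a pseudocount of 1 CPM on the log2 scale, which understates changes of low genes. The slope was tested with edgeR 4.0.16 (quasi-likelihood, TMM, genotype term) in R 4.3.3 and Benjamini-Hochberg adjustment, with DESeq2 1.42.0 as an alternative, and both the contrast and the slope were tested on simulated counts. Scores were compared by exact permutation with scipy 1.17.1. Positions are from GENCODE M21, which held 55154 of the genes, and promoter windows from RefSeq.

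The libraries, the gene lists and the tests were chosen with earlier results of these data known. The genes named are the 15 with the largest difference on each side, members of the 33 lists and Ephb4. Replicates are separate mice. The total count was 66540022 to 120554468 per library. Alternatives were other library sizes, another pseudocount, other filters, 4 libraries a side, a ranking by other fibroblast genes, each mouse left out in turn, and subsets by number series or column run, of which the last were added after the data had been seen. The authors' own comparisons were not used.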

Additional observations from a re-analysis of the deposited data

Results flagged for a closer look

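Among 70 groups of 4 or 5 values looked at, 2 held a library that stood apart from its group, and chance alone sets apart about 1 in 20 such groups. The 2 found are thus no more than chance alone would give. In both, the library was CKO PBS mouse 3, the second by score. Its score was 8.29, and the next CKO PBS mouse had 3.97. Both lists are of fibroblast or mesenchyme genes, so standing apart on them is not separate from the score that placed this mouse on the high side. Over the alveolar fibroblast genes its mean log2(CPM + 1) was 2.74, and the nearest of the other 4 CKO PBS mice was at 1.56. Over the lung mesenchyme transcription factors its mean was 2.0, and the nearest was at 0.59. The same mouse was the only CKO PBS mouse on the high side.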

How the results depend on the processing

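RLE library sizes gave 87 and TMM 89 genes lower, where a shift of all genes alike could not reverse genes chosen for a difference of at least 2. A pseudocount of 5 gave 238 higher and 31 lower, 4 libraries a side 110 and 3, a ranking by other fibroblast genes 326 and 0 (43 of the 47 kept their sign, with no test), CKO mouse 5 in place of control mouse 1 219 and 16, number series 11 alone 300 and 9, the first run 16 lower and the second 181 lower, and a difference of at least 1 gave 1528 and 269. Leaving out a mouse gave 605 to 989 higher and 48 to 97 lower, with 97 without CKO mouse 3 and 92 without CKO mouse 4. In number series 11 alone 3 leading low-side genes reversed, Ms4a7 to 0.66, Slamf8 to 0.15 and Npy to 1.12. Rising slopes numbered 739 by DESeq2, 1175 without a genotype term and 0 on leaving out the 3 libraries with a sex mismatch, and falling slopes 136, 701 and 0, with 486 falling at an unadjusted p under 0.05 in the last. With the column run as a term they numbered 68 and 0, with 130 falling at an unadjusted p under 0.05. Falling slopes were 1 with no filter and 16 with a score from other fibroblast genes. Leaving out a bleomycin mouse gave 0 to 260 rising and 0 to 34 falling, with 34 without control mouse 1 and 13 without CKO mouse 3. The genotype difference in score ran from -2.02 to 1.17, the number series difference from -2.74 to -0.78, the sex difference from -1.22 to 1.83 and the run difference from -5.38 to -2.57 as each mouse was left out. The sex difference was -1.22 without CKO mouse 3, -0.28 without control mouse 2, -0.3 without CKO mouse 4 and -0.54 without control mouse 4. Medians of the pan-macrophage, lipid-associated, lysosomal and cytokine lists were negative in all 16 settings, while medians changed sign in 9 settings for alveolar macrophage genes, in 3 each for MHC class II, lipid, lymphocyte and neutrophil genes, in 2 each for interstitial macrophage and complement genes, and in 1 each for endothelial and Fc receptor genes. The cause of these changes was not tested. No paired analysis was possible because the labels carry no replicate numbers.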

Other observations

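Genes of replication-dependent histones, chosen after their values were seen, were measured because total RNA was sequenced. Of 70 such genes 60 passed the filter and 33 were higher on the high side, beside 7.54% of all genes. The median difference was 2.03 over the 60. All 33 were highest in CKO PBS mouse 3, where the 60 genes summed to 4104 CPM, against 1701 CPM in control mouse 3, 1071 in control mouse 1 and 374 to 819 on the low side. In the middle the sum was 839 CPM in CKO mouse 5, 584 in CKO mouse 2 and 1360 in control mouse 2, which was above control mouse 1. Mki67 was at 283, 266 and 284 CPM in the same 3 high libraries, so its level was alike where the histone sum was not. None of the 60 rose with the score after bleomycin at an adjusted p under 0.05 in edgeR, beside 2.59% of all genes.

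Of 10 neutrophil genes, S100a8, a calcium-binding protein of myeloid cells, was higher on the low side, at 20.4, 59.1 and 28.6 CPM against 9.7, 4.08 and 6.15. Mmp8, the collagenase of neutrophils, was at 7060 CPM in CKO mouse 1 and at 8.6 to 230.4 CPM in the other 8 PBS libraries, while Retnlg, a defining neutrophil gene, was at 0 there. Of 12 lymphocyte and NK genes only Il7r passed the filter, at 204, 164 and 125 CPM on the low side against 19.7, 23.4 and 30, and at 240.2 CPM in CKO mouse 5. Of 13 dendritic cell and MHC class II genes none was counted, and the median was 0.26, which changed sign in 3 of 16 settings. Of 14 complement genes none was counted (median 0.81, which changed sign within both column runs, down to -0.91), of 14 Fc receptor and lectin genes Clec4d and Clec4e were (median -1.12), and of 15 lipid genes Scd1 and Apoc2 were, on the high side (median -0.61, with another sign in 3 settings). Scd1, a fatty acid desaturase, was at 576, 848 and 175 CPM against 63.4, 9.6 and 26.3. The 7 mast cell genes held no counted member, with a median of 0.03.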
